A study of Mus musculus with 12 samples.

Results

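The RNA levels of 8 genes for neurotrophin and GDNF ligands and receptors were followed through 12 rhabdoid tumors of the mouse. The set held Bdnf and Ntf3 (neurotrophins), Ntrk2 and Ntrk3 (their tyrosine kinase receptors), Gdnf (the founding ligand of its family), Ret (the tyrosine kinase of that family) and Gfra1 and Gfra2 (co-receptors that bind the ligand and present it to Ret). They are 8 of the 24060 genes listed for each tumor. The tumors arose in P0-CreC;Smarcb1flox/flox mice on the FVB/N background, in which Cre recombinase of the P0-CreC transgene removes both copies of Smarcb1, a core subunit of the SWI/SNF chromatin remodeling complex, from early neural crest cells and the Schwann cell lineage. The label gives the location of each tumor as retro-orbital (4 tumors), cheek (3 tumors), meninges (3 tumors), vestibular nerve (1 tumor) or trigeminal nerve (1 tumor), and it gives no age and no replicate number. The study itself speaks of oculomotor and maxillary nerve tumors where the labels say retro-orbital and cheek; these could be matched only by anatomy and the number of tumors, so the label names are used. All 12 tumors carry the same genotype and no normal nerve or tumor with intact Smarcb1 was used here, so levels could be compared only among tumors. Cre of this transgene acts in several neural crest tissues, and the paper saw its activity in few cells of the olfactory epithelium and trigeminal nerve. A dissected tumor also holds host cells.

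Neurotrophins are secreted proteins that keep neurons of the peripheral and central nervous system alive and guide their growth. BDNF and neurotrophin 4 (Ntf5) act mainly through TrkB (Ntrk2), and neurotrophin 3 (Ntf3) mainly through TrkC (Ntrk3), while p75NTR (Ngfr) binds all of them and pairs with sortilin for the uncleaved forms. GDNF family ligands bind a GFR alpha co-receptor held on the membrane by a lipid anchor, and the pair then brings RET molecules together. GFR alpha 1 prefers GDNF and GFR alpha 2 prefers neurturin (Nrtn), and NCAM is an alternative partner of the co-receptors where RET is absent. In the embryo these genes serve neural crest derivatives such as sensory, sympathetic and enteric neurons and the Schwann cells along cranial nerves.

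Levels are given in the unit the authors deposited, RPKM, which scales the reads of a gene to the length of its transcript and to the depth of the library. The totals behind them, recovered from the smallest steps between values, ranged from 13206168 to 57128422 fragments per tumor. Smarcb1, the deleted gene, ranged from 1.70 RPKM in the vestibular nerve tumor to 6.31 RPKM in meninges tumor 3 (median 4.61); reads from host cells and from undeleted exons cannot be told apart in it. Sox10, a defining marker of Schwann cells, was low, with a highest value of 3.56 RPKM. The first part of the identifier in the title is shared within 3 pairs of tumors, namely cheek tumor 1 and meninges tumor 1, cheek tumors 2 and 3, and retro-orbital tumor 3 and the trigeminal nerve tumor, and whether a pair comes from 1 animal is not stated. Of all 66 pairs of tumors, cheek tumors 2 and 3 were the most alike (r of log2 levels 0.984 over the genes tested, against 0.921 for the next pair). Their fragments differed beyond counting error (chi-square 54.4 per degree of freedom over 110 genes), which does not tell whether they are separate tumors. They were kept apart as the labels list them, and averaging them is given as an alternative. Since no label says that tumors of 1 location came from separate animals, p-values measure the spread between these tumors. In bulk tumor RNA, fewer cells of a type and less RNA per cell cannot be told apart.

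All 8 genes are protein coding, and their positions come from the GENCODE M21 annotation of GRCm38, which is the build of the mm10 genome used for alignment. Bdnf lies on chromosome 2 from 109674700 to 109727007 (plus strand), Ntf3 on chromosome 6 from 126101412 to 126166910 (minus), Ntrk2 on chromosome 13 from 58806569 to 59133970 (plus) and Ntrk3 on chromosome 7 from 78175959 to 78738012 (minus). Gdnf lies on chromosome 15 from 7810846 to 7837575 (plus), Ret on chromosome 6 from 118151745 to 118197718 (minus), Gfra1 on chromosome 19 from 58235604 to 58455909 (minus) and Gfra2 on chromosome 14 from 70890120 to 70979838 (plus). The values cover the exons of a gene as a whole, so the kinase form of TrkB and its truncated forms, which lack the kinase, are summed in Ntrk2, and likewise for Ntrk3. An annotated gene on the opposite strand shares 896 exon bases (14.4%) with Bdnf and another shares 416 exon bases (7.6%) with Gfra1. The libraries were stranded but the strand setting of the counting is not stated, so reads of these overlaps cannot be assigned with certainty.

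The ligands were low in most tumors. Bdnf, which supports sensory neurons and synapses, was at 7.01, 1.41, 1.56 and 0.278 RPKM in retro-orbital tumors 1 to 4, at 2.36, 0.991 and 0.823 RPKM in cheek tumors 1 to 3 and at 0.715, 4.67 and 1.28 RPKM in meninges tumors 1 to 3. It was at 0.488 RPKM in the vestibular nerve tumor and 1.30 RPKM in the trigeminal nerve tumor. Retro-orbital tumor 1 and meninges tumor 2 stood highest, retro-orbital tumor 4 stood lowest, and all 3 locations overlapped. The mean was 2.56 ± 3.02 RPKM (SD, n = 4) in the retro-orbital, 1.39 ± 0.843 (SD, n = 3) in the cheek and 2.22 ± 2.14 (SD, n = 3) in the meninges tumors. Of the 8 genes, Bdnf had the smallest share of its variance of log2(RPKM + 1) lying between these locations, 3.0%, against a median of 30.1% over the 14745 genes tested.

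Ntf3, the ligand of TrkC, was at 0.215, 3.43, 2.76 and 0.454 RPKM in the retro-orbital tumors, in the same order. It was at 1.55, 0 and 0.147 RPKM in the cheek tumors and at 5.73, 0.368 and 7.0 RPKM in the meninges tumors. The vestibular nerve tumor had 0.296 RPKM and the trigeminal nerve tumor 2.81 RPKM. Meninges tumors 3 and 1 were therefore the highest of the 12 and cheek tumors 2 and 3 the lowest, but meninges tumor 2 lay below cheek tumor 1, so that the locations overlapped. Ntf3 is short and its values rest on few fragments, 0 to 244 per tumor: none were recorded in cheek tumor 2, where a count of 0 allows up to 0.0594 RPKM, and 3 were recorded in cheek tumor 3. These floors cover counting error only.

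Gdnf, a survival factor for motor, sympathetic and enteric neurons, was at 0.221, 0.737, 2.58 and 0.048 RPKM in the retro-orbital tumors, 0.131, 0.218 and 0.216 RPKM in the cheek tumors and 0.321, 2.63 and 0.544 RPKM in the meninges tumors. The vestibular and trigeminal nerve tumors had 0.050 and 0.202 RPKM. Gdnf thus passed 1 RPKM in retro-orbital tumor 3 and meninges tumor 2 only, and it was too low for the filter of the test between locations. Its 3 meninges values all lay above its 3 cheek values. Of the genes tested, 19.2% likewise had all cheek values below all meninges values. Its fragments numbered 5 to 517 per tumor.

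**Figure D1:**
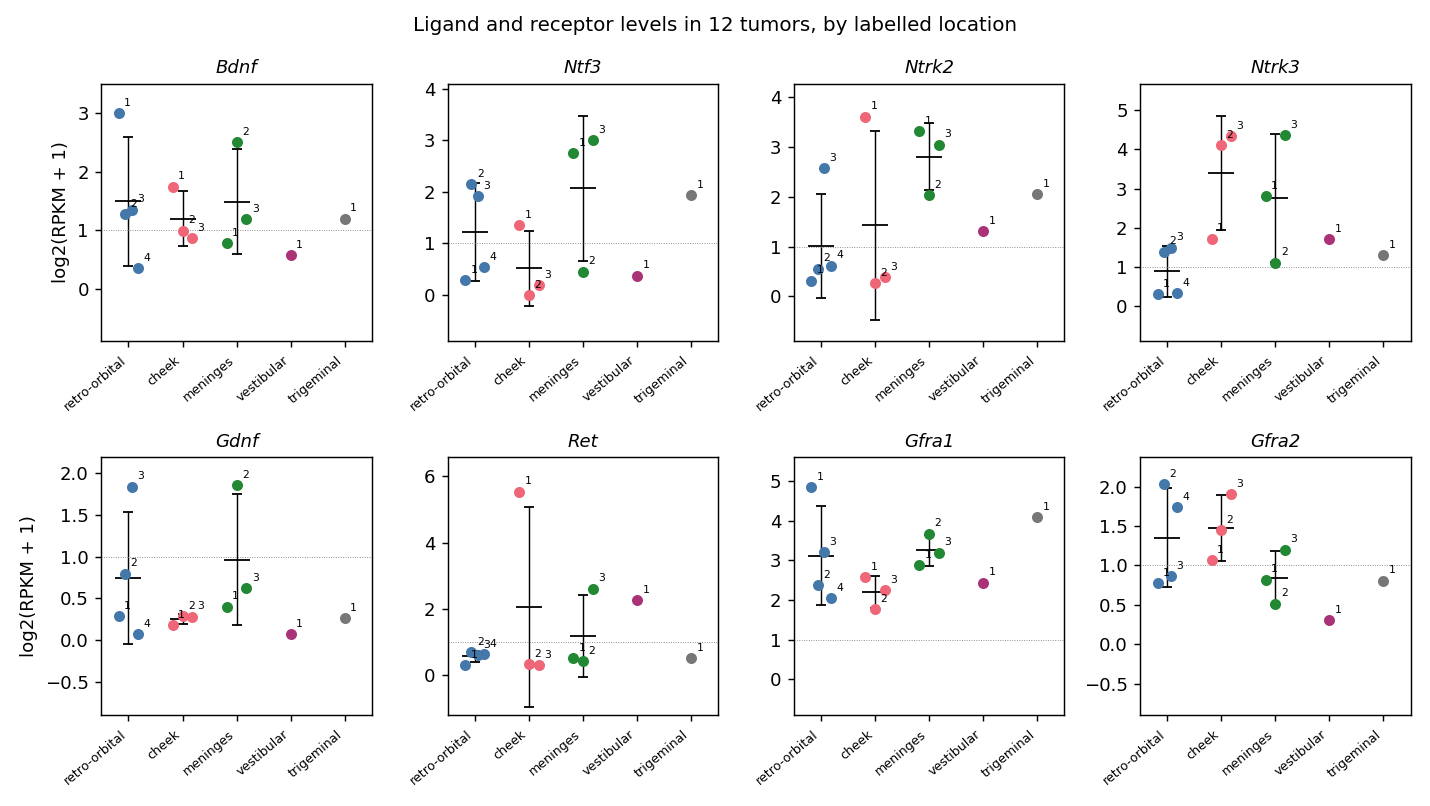
Level of each of the 8 genes in each tumor, as log2(RPKM + 1), by the labelled location; numbers mark the tumor within its location, long ticks and bars give the mean and SD of the locations with 3 or 4 tumors, and the dotted line marks 1 RPKM. Ret is high in cheek tumor 1 (45.4 RPKM) and not in cheek tumors 2 and 3 (0.263 and 0.227 RPKM), while Ntrk3 is high in those 2 tumors and in meninges tumor 3.

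The receptors Ntrk2, Ntrk3 and Ret had a larger SD of log2(RPKM + 1) over the tumors than the 3 ligands. The tumors in which they were high were shared in part. Cheek tumor 1 held the highest level of Ntrk2 (11.1 RPKM) and of Ret (45.4 RPKM). Meninges tumor 3 was high in all of them, with 7.22 RPKM of Ntrk2, 19.7 RPKM of Ntrk3 and 5.11 RPKM of Ret. Ntrk2, which encodes the BDNF receptor TrkB, was at 0.245, 0.473, 4.94 and 0.532 RPKM in the retro-orbital tumors. It was at 11.1, 0.207 and 0.313 RPKM in the cheek tumors and at 8.95, 3.10 and 7.22 RPKM in the meninges tumors. The vestibular nerve tumor had 1.47 RPKM and the trigeminal nerve tumor 3.12 RPKM. The 3 meninges tumors, cheek tumor 1, retro-orbital tumor 3 and the trigeminal nerve tumor were all above 3 RPKM, while retro-orbital tumors 1, 2 and 4 and cheek tumors 2 and 3 were at 0.207 to 0.532 RPKM. Retro-orbital tumor 3 and cheek tumor 1 reached into the range of the meninges tumors, so the locations overlapped.

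Ntrk2 moved with the level of astrocyte markers. All 6 of these markers (Gfap, Aqp4, Aldh1l1, Slc1a2, Gjb6, Fgfr3) reached 1 RPKM in some tumor, and their summed RPKM was 98.2 to 391 in the meninges, 1.29 to 290 in the retro-orbital and 1.74 to 22.8 in the cheek tumors. It was 46.7 in the vestibular and 130 in the trigeminal nerve tumor. Over the 12 tumors the log2 level of Ntrk2 and that of the summed markers had r = 0.81 and rho = 0.83, and r was 0.95 without cheek tumor 1. That tumor held the highest Ntrk2 level of the 12 beside a marker sum of 22.8 RPKM, and the 6 markers were not alike in it. Gfap (0.589 RPKM), Slc1a2 (0.202 RPKM) and Gjb6 (0.048 RPKM) lay below every meninges tumor, while Aqp4 (15.4 RPKM) was near its level in meninges tumor 2 (19.7 RPKM) and Fgfr3 (3.54 RPKM) and Aldh1l1 (3.0 RPKM) lay above theirs (1.33 and 2.7 RPKM). Astrocytes are known to carry the truncated form of TrkB; the part of these cells in the Ntrk2 level was not tested. Other marker lists were related to Ntrk2 too. Over the 12 tumors r was -0.75 for the neuron list and 0.52 for the Schwann cell and satellite glia list. The remaining lists had r from -0.37 (skeletal muscle) to 0.33 (endothelium and mural). Without cheek tumor 1, r was 0.73 for the Schwann cell list and 0.63 for the oligodendrocyte list. Pmp22 alone made up a large and varying part of the Schwann cell sum. It gave 159 of 193 RPKM in meninges tumor 2 and 46.2 of 134 RPKM in meninges tumor 1. These correlations are descriptions over tumors that share a library pool, and the marker lists were correlated with each of the 8 genes (64 combinations).

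Ntrk3, which encodes the neurotrophin 3 receptor TrkC, was at 0.243, 1.62, 1.81 and 0.267 RPKM in the retro-orbital tumors. It was at 2.30, 16.2 and 19.3 RPKM in the cheek tumors and at 6.01, 1.16 and 19.7 RPKM in the meninges tumors. The vestibular nerve tumor had 2.25 RPKM and the trigeminal nerve tumor 1.46 RPKM. Cheek tumors 2 and 3 and meninges tumor 3 formed the top of this range, and each of the 3 cheek tumors lay above each of the 4 retro-orbital tumors. Such a lack of overlap in this direction was seen in 5.72% of the genes tested. Of the 8 genes, Ntrk3 had the largest share of its variance between locations, 53.0%. Cheek tumors 2 and 3 also held the highest summed levels of 10 neuron markers, 557 and 456 RPKM, against 23.3 RPKM in cheek tumor 1, 24.5 to 181 RPKM in the retro-orbital and 44.0 to 74.3 RPKM in the meninges tumors. These sums were mostly the neurofilament genes Nefl (412 and 335 RPKM) and Nefm (91.7 and 67.6 RPKM). The other neuron markers went both ways. Tubb3 (10.9 and 10.5 RPKM) was higher there than in the other 10 tumors. Snap25 (25.5 and 25.4 RPKM) and Stmn2 (16.8 and 17.1 RPKM) were above their medians of 17.5 and 7.61 RPKM. Syt1 (0.242 and 0.22 RPKM) was lower there than in the other 10 tumors. Rbfox3 (0.062 and 0.015 RPKM), Nefh (0.077 and 0.114 RPKM) and Prph (0.131 and 0.122 RPKM) were below their medians, and Elavl4 (0.246 and 0.574 RPKM) lay on both sides of its own. In meninges tumor 3, where Ntrk3 was as high, the neuron sum was 74.3 RPKM. The fibroblast and meningeal cell markers summed to 765, 744 and 887 RPKM in cheek tumors 2 and 3 and meninges tumor 3. The skeletal muscle markers summed to 533, 272 and 198 RPKM. Different genes made up these sums. In the same order, Pdgfra was at 401, 392 and 46.6 RPKM and Dcn at 42.4, 33.6 and 168 RPKM. Acta1 was at 196, 106 and 0.608 RPKM and Myh1 at 77.4, 26.8 and 154 RPKM. Like sums also came with little Ntrk3. The trigeminal nerve tumor had a fibroblast and meningeal sum of 797 RPKM, and retro-orbital tumor 4 a muscle sum of 200 RPKM. Over the 12 tumors r with Ntrk3 was 0.61 for the fibroblast and meningeal list, 0.51 for the neuron list and 0.49 for the muscle list. By rank these were weaker (rho = 0.43, 0.28 and 0.45). The remaining lists had r from -0.32 (leukocyte) to 0.08 (oligodendrocyte). The part of these cells in the Ntrk3 level was not tested.

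Few tumors held both Trk receptor genes at a high level. The ratio of Ntrk3 to Ntrk2, both per length, ran from 0.206 in cheek tumor 1 to 78.0 in cheek tumor 2 and was above 1 in 5 of the 12 tumors. Cheek tumor 1 carried mainly Ntrk2, and cheek tumors 2 and 3 carried mainly Ntrk3. Meninges tumors 1 and 3 carried both, at 8.95 and 6.01 RPKM and at 7.22 and 19.7 RPKM of Ntrk2 and Ntrk3, and retro-orbital tumors 1 and 4 had 0.532 RPKM or less of each.

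Ret, the kinase shared by the GDNF family, had the largest SD over the tumors of the 8 genes. It was at 0.236, 0.626, 0.527 and 0.568 RPKM in the retro-orbital tumors, 45.4, 0.263 and 0.227 RPKM in the cheek tumors and 0.431, 0.342 and 5.11 RPKM in the meninges tumors. The vestibular nerve tumor had 3.78 RPKM and the trigeminal nerve tumor 0.437 RPKM. Ret was thus above 1 RPKM in 3 tumors of 3 locations, and the highest and lowest levels were 200-fold apart, both among cheek tumors. The level in cheek tumor 1 rested on 9452 fragments and was above that of 93.4% of all genes listed in that tumor, while the median over the 12 tumors was at percentile 37.7. The neuron marker sum of cheek tumor 1 (23.3 RPKM) was the lowest of the 12, but its markers went both ways. Prph (2.38 RPKM), Nefh (0.38 RPKM) and Elavl4 (0.33 RPKM) were above their medians of 1.42, 0.328 and 0.313 RPKM, and the others were below theirs. Its Schwann cell and satellite glia marker sum was 59.9 RPKM, mostly Pmp22 (30.5 RPKM, median 60.9) and Erbb3 (19.0 RPKM, median 9.82). Sox10 and Ngfr were also above their medians, and the remaining markers of that list were below. The next Ret levels, in meninges tumor 3 and the vestibular nerve tumor, came with neuron marker sums of 74.3 and 73.7 RPKM.

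Gfra1, the GDNF co-receptor, was the only 1 of the 8 genes above 1 RPKM in every tumor. It was at 27.8, 4.19, 8.28 and 3.12 RPKM in the retro-orbital tumors, 4.96, 2.43 and 3.79 RPKM in the cheek tumors and 6.37, 11.8 and 8.18 RPKM in the meninges tumors. The vestibular nerve tumor had 4.44 RPKM and the trigeminal nerve tumor 16.0 RPKM. Retro-orbital tumor 1 and the trigeminal nerve tumor were the highest, and each of the 3 cheek tumors lay below each of the 3 meninges tumors, as did 19.2% of the genes tested. The retro-orbital tumors spanned both ranges.

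Gfra2, the neurturin co-receptor, had the smallest SD of log2(RPKM + 1) of the 8 genes. It was at 0.715, 3.08, 0.814 and 2.35 RPKM in the retro-orbital tumors, 1.09, 1.74 and 2.73 RPKM in the cheek tumors and 0.766, 0.428 and 1.30 RPKM in the meninges tumors. The vestibular and trigeminal nerve tumors had 0.234 and 0.750 RPKM. Retro-orbital tumors 2 and 4 and cheek tumors 2 and 3 held its highest levels, and every pair of locations overlapped. Gfra1 was above Gfra2 in all 12 tumors, by 1.33-fold in retro-orbital tumor 4 to 38.9-fold in retro-orbital tumor 1.

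The SD of log2(RPKM + 1) over the 12 tumors was 1.56 for Ret, 1.47 for Ntrk3, 1.25 for Ntrk2, 1.07 for Ntf3, 0.90 for Gfra1, 0.77 for Bdnf, 0.63 for Gdnf and 0.55 for Gfra2. The reference for these SDs was the genes that reached 1 RPKM in enough of the 12 tumors to be compared for likeness below. Ret was more variable than 96.4% of them and Ntrk3 than 95.6%, while Gfra2 was more variable than 58.5%. This scale compresses genes of low level such as Gdnf, whose highest and lowest RPKM were 54.4-fold apart, and the SD of low genes is held down by the added 1.

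Levels were then compared among the 3 locations with at least 3 tumors, to ask whether these genes differ by the site of the tumor. The test was limma on log2(RPKM + 1), and differences are on that scale. It covered the 14745 genes that reached 1 RPKM in 3 or more of these 10 tumors. Bdnf, Ntf3, Ntrk2, Ntrk3, Gfra1 and Gfra2 passed this filter, and Gdnf and Ret, each at 1 RPKM or more in 2 of the 10 tumors, did not. None of the 6 was called in the F test over the 3 locations (Benjamini-Hochberg adjusted p of limma at 0.05), where 0.0407% of the genes tested were called (6 genes, and 2110 at an unadjusted p under 0.05). The lowest adjusted p of the 6 was 0.327 for Ntrk3 (limma, unadjusted p = 0.0316), followed by 0.465 for Ntrk2 and 0.482 for Ntf3. It was 0.53 for Gfra1, 0.587 for Gfra2 and 0.931 for Bdnf.

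Between cheek and retro-orbital tumors, Ntrk3 was higher in the cheek by 2.50 ± 0.83 (log2, SE, limma adjusted p = 0.32), a difference that did not pass the adjusted threshold. Its high cheek levels were those of cheek tumors 2 and 3 (16.2 and 19.3 RPKM), the most alike of all pairs, against 2.30 RPKM in cheek tumor 1. In the fits that left out 1 tumor the difference ranged from 2.027 to 3.338. Of the genes tested, 0.0271% were called here (4 genes, and 1765 at an unadjusted p under 0.05), and the median difference was -0.015. Gfra1 differed by -0.92 ± 0.59 (limma adjusted p = 0.562) and Ntf3 by -0.70 ± 0.72 (0.712), both lower in the cheek. Without retro-orbital tumor 1 the Gfra1 difference was -0.339. Ntrk2 differed by 0.41 ± 0.86 (limma adjusted p = 0.865), with cheek tumor 1 far above the other 2. Without that tumor the Ntrk2 difference turned to -0.683.

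Between meninges and retro-orbital tumors, Ntrk3 was higher in the meninges by 1.88 ± 0.83 (log2, SE; limma adjusted p = 0.546) and Ntrk2 by 1.78 ± 0.86 (limma adjusted p = 0.562). Without meninges tumor 3 the Ntrk3 difference was 1.076, and without meninges tumor 2 it was 2.706. Ntf3 differed by 0.85 ± 0.72 (limma adjusted p = 0.704) and Gfra2 by -0.51 ± 0.39 (0.679). None passed the threshold in this contrast, in which 0.0203% of the genes tested were called (3 genes, and 1348 at an unadjusted p under 0.05) and the median difference was 0.132. Bdnf and Gfra1 differed by -0.01 and 0.13, less than their standard errors.

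Between cheek and meninges tumors, Ntf3 differed by -1.55 ± 0.77 on the log2 scale and was lower in the cheek (limma adjusted p = 0.334). Ntrk2 differed by -1.37 ± 0.92 (limma adjusted p = 0.458) and Gfra1 by -1.05 ± 0.64 (0.417), both lower in the cheek, and Gfra2 by 0.63 ± 0.42 (0.453), higher in the cheek. Of the genes tested, 0.0475% were called (7 genes, and 2501 at an unadjusted p under 0.05), none of them a member of the set, and the median difference was -0.16. Of the members' differences, that of Ntf3 alone passed the threshold in an alternative, the fit with the shared identifier as a block (-1.403, limma adjusted p = 0.0115, and 0.0355 in its F test). In that fit 4243 genes were called in this contrast in place of 7.

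Ret and Gdnf were tested only in a fit with no filter, over all genes with a value above 0. There Ret was higher in the cheek than in retro-orbital tumors by 1.49 ± 1.18 (log2, SE; limma adjusted p = 0.757), a difference that rested on cheek tumor 1 and was -0.251 without it in the fits that left out 1 tumor. Gdnf differed by -0.72 ± 0.50 between cheek and meninges (limma adjusted p = 0.521).

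**Figure D2:**
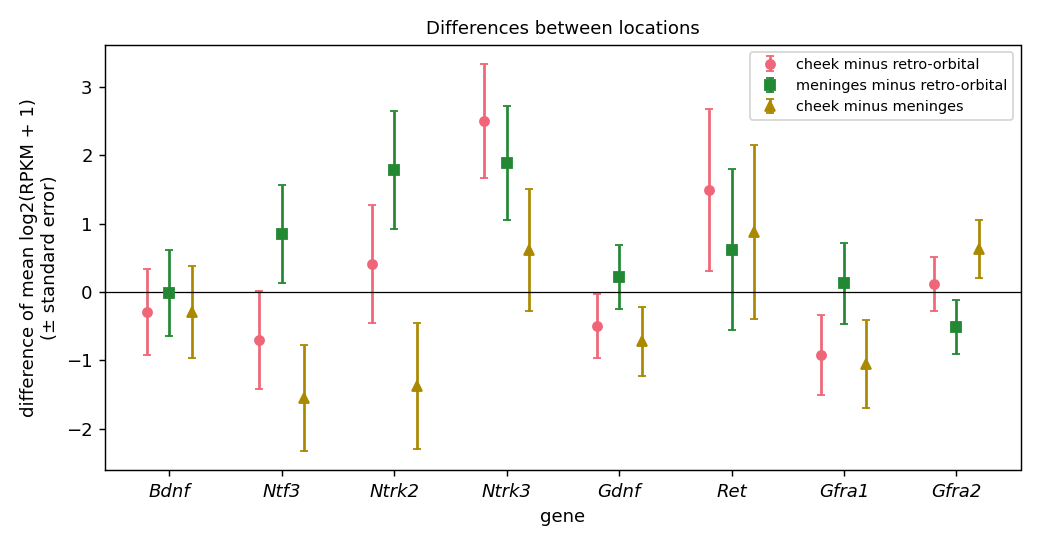
Difference between the mean log2(RPKM + 1) of 2 locations for each of the 8 genes, with its standard error from limma; circles are cheek minus retro-orbital, squares meninges minus retro-orbital and triangles cheek minus meninges tumors. Gdnf and Ret come from the fit with no filter. The point farthest from 0 is Ntrk3 in cheek minus retro-orbital tumors, 2.50 ± 0.83, with an adjusted p of 0.32 in limma.

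The levels of ligands and of their own receptors were weakly related. Over the 12 tumors r of log2(RPKM + 1) was 0.03 for Bdnf and Ntrk2, 0.15 for Ntf3 and Ntrk3, 0.27 for Gdnf and Gfra1 and -0.25 for Gdnf and Ret. Bdnf and Ntrk2 were both at 1 RPKM or more in 5 tumors (retro-orbital tumor 3, cheek tumor 1, meninges tumors 2 and 3 and the trigeminal nerve tumor), and Ntf3 and Ntrk3 were in 6. Gdnf and Gfra1 were both at that level in 2 tumors. Gdnf, Gfra1 and Ret were at that level together in none of the 12. Where Gdnf was highest, in meninges tumor 2 (2.63 RPKM) and retro-orbital tumor 3 (2.58 RPKM), Ret was at 0.342 and 0.527 RPKM. Where Ret was highest, in cheek tumor 1, Gdnf was at 0.131 RPKM and Gfra1 at 4.96 RPKM. Since a tumor is a mixture of cells, a ligand and a receptor of 1 tumor need not be of 1 cell type.

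Among the 28 pairs of the 8 genes, 3 had r of 0.5 or more and 1 had r of -0.5 or less. The closest pair was a ligand and the co-receptor of the other family, Bdnf and Gfra1 (r = 0.75, rho = 0.66), and this r was above that of Bdnf with 99.8% of 15020 genes. It fell between 0.54, without retro-orbital tumor 1, and 0.84 when 1 tumor at a time was left out. Retro-orbital tumor 1 had the highest level of both genes, 7.01 and 27.8 RPKM. Ntf3 and Ntrk2 followed (r = 0.69, rho = 0.73), both highest in meninges tumors 1 and 3 apart from Ntrk2 in cheek tumor 1. Ntrk2 and Ret had r = 0.58 (rho = 0.61), which was 0.37 without cheek tumor 1. Gfra1 and Gfra2 had a negative r (r = -0.56, rho = -0.68). The share of genes with a smaller r was less extreme for these pairs. For Ntf3 and Ntrk2 it was 97.7% for Ntf3 and 93.0% for Ntrk2. For Ntrk2 and Ret it was 85.2% for Ntrk2 and 95.3% for Ret. For the negative pair it was 2.6% for Gfra1 and 11.6% for Gfra2. All of these are descriptions over 12 tumors of 1 pool, some of which may share an animal.

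**Figure D3:**
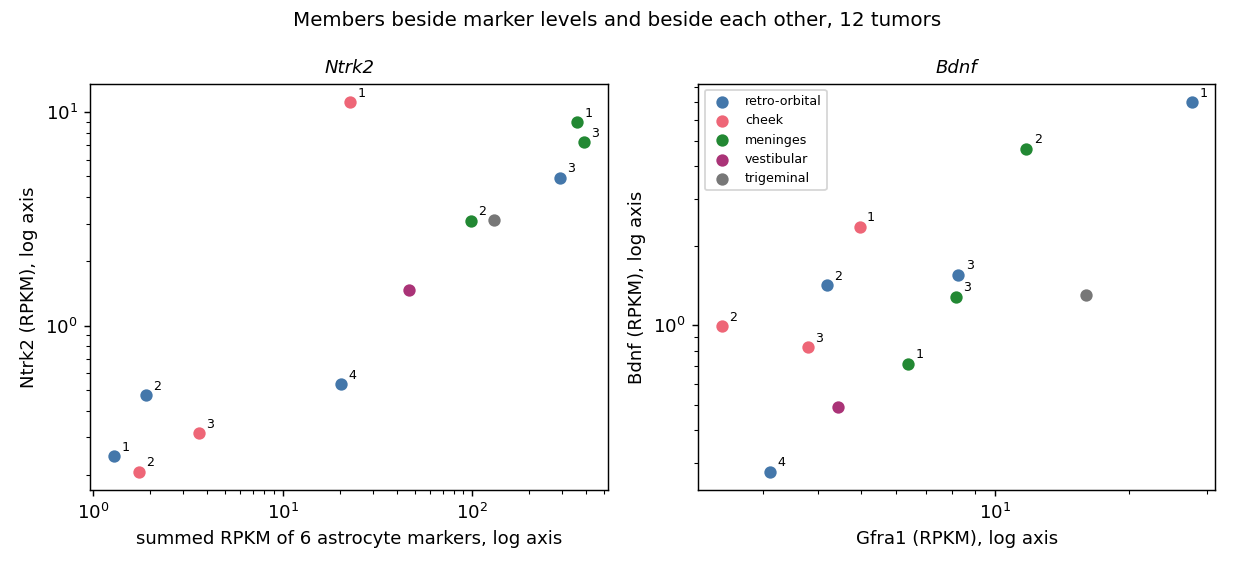
Left, Ntrk2 level against the summed level of 6 astrocyte markers, and right, Bdnf level against Gfra1 level, in each of the 12 tumors, in RPKM on log axes, with colors for the labelled location and numbers for the tumor. Cheek tumor 1 lies apart on the left (11.1 RPKM of Ntrk2 beside 22.8 RPKM of markers), and retro-orbital tumor 1 lies at the top right of the other panel (7.01 RPKM of Bdnf and 27.8 RPKM of Gfra1).

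The ligands and receptors around the 8 genes filled in the pattern. Of the 25 listed ligands and receptors of both families, all were in the files, and 6 were at 1 RPKM or more in every tumor. Gfra1, Gfra4, Ncam1, Sdc3 and Sorcs2 were among these 6. Ngfr was at 1 RPKM or more in 7 tumors, highest in the vestibular nerve tumor (6.32 RPKM) and retro-orbital tumor 3 (6.13 RPKM). Ntf5, the second ligand of TrkB, was highest in the vestibular nerve tumor at 9.52 RPKM, where Ntrk2 was at 1.47 RPKM and Bdnf at 0.488 RPKM.

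Sort1 (sortilin) was at 13.4, 8.50 and 11.0 RPKM in the meninges tumors and at 15.7 RPKM in retro-orbital tumor 3, tumors in which Ntrk2 was above 3 RPKM too, but it was at 3.62 RPKM in cheek tumor 1, which held the most Ntrk2. Sorcs2, a sortilin relative, was highest in retro-orbital tumor 1 at 84.1 RPKM, where Bdnf and Gfra1 were highest too. In the GDNF family, Artn (artemin) reached 10.5 RPKM in meninges tumor 2 and Nrtn (neurturin) 5.22 RPKM in retro-orbital tumor 3. Nrtn, Gfra2 and Ret were at 1 RPKM or more together in cheek tumor 1 and meninges tumor 3. Gfra4 was at 1.31 to 11.5 RPKM, and Gfra3, Gfral and Pspn were below 1 RPKM in all 12 tumors. Ncam1, the alternative partner of the co-receptors, was at 1 RPKM or more in every tumor beside Gfra1. Its highest levels were in cheek tumors 2 and 3 (27.6 and 29.9 RPKM), in which Ret was at 0.263 and 0.227 RPKM.

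**Figure D4:**
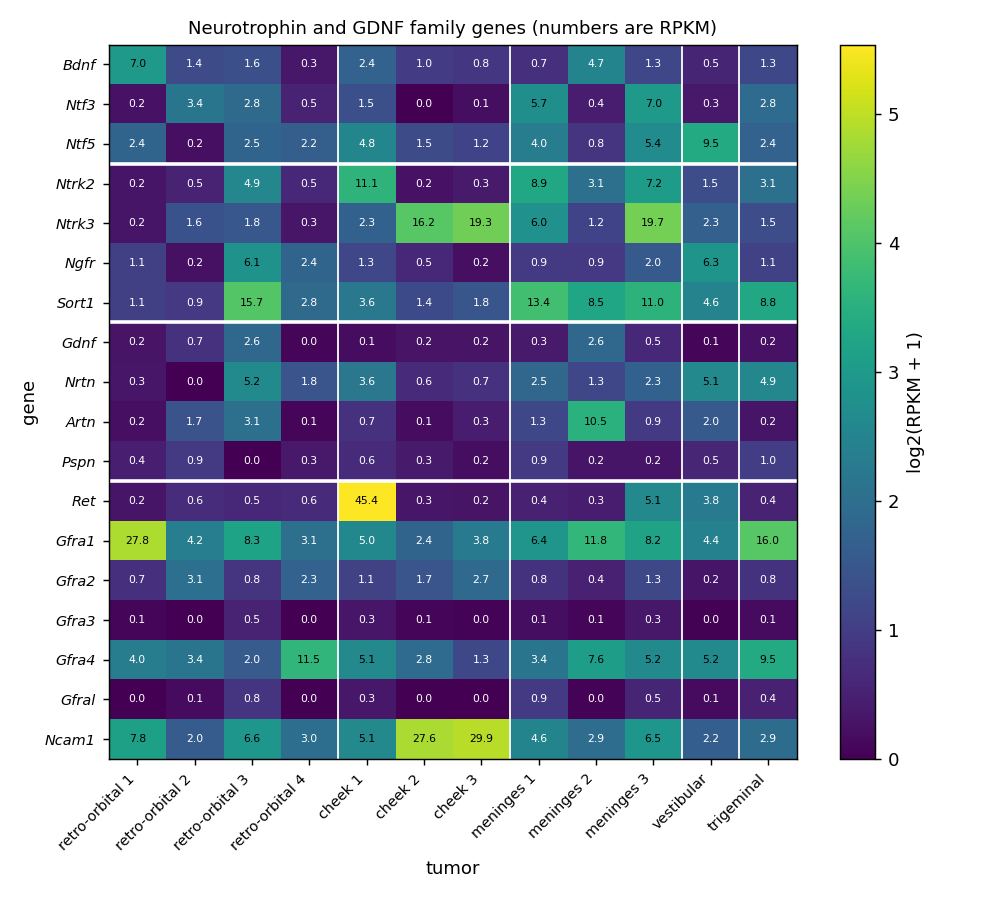
Levels of ligands and receptors of both families in the 12 tumors, colored by log2(RPKM + 1) with the RPKM printed in each cell; rows run from neurotrophin ligands and receptors to GDNF family ligands and receptors, and white lines part the groups of genes and the locations. Gfra1 is above 1 RPKM in every tumor while Ret is so in 3.

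The wider pathway was listed as 75 genes in 7 lists, of which 64 passed the filter. None was called in any of the 4 comparisons (limma, Benjamini-Hochberg adjusted p at 0.05). At an unadjusted p under 0.05 there were 14 in the F test, 15 between cheek and retro-orbital, 9 between meninges and retro-orbital and 19 between cheek and meninges tumors, or 21.9%, 23.4%, 14.1% and 29.7% of the 64. Over all genes tested the same shares were 14.3%, 12.0%, 9.1% and 17.0%. The lowest adjusted p values in the 4 comparisons were those of Pcsk6, which encodes a convertase that cleaves proneurotrophins (0.142 in the F test and 0.163 between cheek and retro-orbital), of the adaptor gene Shc3 (0.43 between meninges and retro-orbital) and of Sdc3, which encodes a heparan sulfate carrier that binds GDNF (0.0991 between cheek and meninges). Of the adaptors and signal relay genes, 14 of 20 were at 1 RPKM or more in every tumor. So were 8 of 16 inhibitors and processing enzymes, 10 of 14 ERK feedback and immediate early genes and 0 of 5 GDNF family ligands. The share of all genes at that level in every tumor was not taken, so these counts have no baseline.

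The genes most like each member over the 12 tumors were ranked by Pearson's r of log2(RPKM + 1). Ntrk2 was most like Arhgap20, Psd2 and Cacna2d3 (r = 0.95 each), and Ntf3 was most like Chst1 (r = 0.95), Dcbld2 and Bmp5 (0.90 each). Ntrk3 was near to Megf10 (r = 0.89) and Lce1g (0.87), and Gfra2 to Sync (0.90), Prkca and Itga10 (0.89 each). For these 4 members r stayed at 0.86 or above when any 1 tumor was left out. Gfra1 was nearest to Wee1 (r = 0.86), Gad2 and Negr1 (0.85 each), and Bdnf to E330013P04Rik (0.87), Fam110c (0.86) and Atrn (0.84). The likeness of Bdnf rested in part on retro-orbital tumor 1, without which the 3 values were 0.73, 0.72 and 0.70. Ret was nearest to Ddhd1 (r = 0.92), Nlrx1 and Nkpd1 (0.90 each), which dropped to 0.61, 0.68 and 0.60 without cheek tumor 1. Gdnf reached 1 RPKM in too few tumors to be ranked.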

How the data were processed

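RNA of 12 tumors was sequenced after ribosomal RNA removal with a stranded kit, as a single pool. Per the methods and processing notes, the authors used STAR for alignment to mm10, took only reads that mapped uniquely, and used HTSeq to count fragments of RefSeq genes. The deposited values are RPKM. The transcript length and mapped-read set behind RPKM are not given in the sources used here. Fragment totals and per-gene fragments were read from the smallest steps among RPKM values, taking for each gene the shortest length that made its values whole. The 27 rows with a date in place of a gene symbol were kept in fits and never named.

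Tumors were grouped by the labelled location. limma 3.58.1 (R 4.3.3, trend and robust prior variance) was fitted to log2(RPKM + 1) of the 10 tumors from 3 locations, for genes with at least 1 RPKM in 3 tumors, with Benjamini-Hochberg adjustment over all genes and a threshold of 0.05. This scale understates changes of low genes. The single vestibular and trigeminal nerve tumors entered no test. The fit was tested on simulated data. RPKM are not counts, so no count model was used.

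The members, the 7 pathway lists and the 8 marker lists were chosen with earlier results of these data known. Named genes were the members, ligands and receptors of the lists at 1 RPKM in any tumor, listed genes past the threshold, and the 3 genes most like each member; those named for the lowest adjusted p were chosen after their values were seen. Alternatives were a pseudocount of 0.1, no filter, quantile normalization, another prior, the identifier as a block, cheek tumors 2 and 3 averaged, and each tumor left out. Some genes that these rules name are not reported here. Correlations carry no p. Python 3.11.15 with pandas 2.3.3 was used for summaries.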

Additional observations from a re-analysis of the deposited data

Results flagged for a closer look

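Among the 4 retro-orbital tumors, 4 of 21 ligand and receptor genes had 1 tumor far from the other 3. The measure was the gap to the nearest value as a share of the whole range (Dixon's test at its 95% critical value). It was taken on RPKM and not on the log2 scale used elsewhere, so high values weigh more. Chance marks about 1 in 20 groups where values are normally distributed, which was not tested for RPKM. Ntrk2 was high in retro-orbital tumor 3 (4.94 RPKM, share 0.939), the retro-orbital tumor with the highest astrocyte marker sum (290 RPKM). Sort1 was high in the same tumor (15.7 RPKM, share 0.874). Ntf5 was low in retro-orbital tumor 2 (0.173 RPKM, share 0.88), and Gdf15 was low in retro-orbital tumor 1 (0.272 RPKM, share 0.866), where every tumor of the 4 was below 1 RPKM. Groups of 3 tumors were not screened, so the Ret level of cheek tumor 1 was not.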

How the results depend on the processing

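The labels carry no replicate numbers to pair tumors by, and the shared identifier was fitted as a block instead. Of 294 tested values of the members under the alternatives, 271 stayed the same, 22 changed sign, and Ntf3 between cheek and meninges passed the threshold in 1. For the members that passed the filter, the same means that direction and side of the threshold were kept. Gdnf and Ret, tested only with no filter, had no adjusted p in the main fit. Their tested values count as the same because they moved by less than 1 SD between tumors. Of 90 values of Gdnf and Ret with no test, 89 moved by less than 1 SD between tumors, some of them through 0, and Gdnf between cheek and meninges moved to -1.666 with pseudocount 0.1. With the shared identifier as a block, the reversed values were Bdnf 0.463 (cheek minus retro-orbital) and 0.798 (cheek minus meninges), Ntrk2 0.095 and Ntrk3 -0.875 (both cheek minus meninges), Gfra1 -0.069 (meninges minus retro-orbital) and Gfra2 -0.086 (cheek minus retro-orbital). That fit estimated a correlation of 0.93 within blocks, while deviations from the location mean had r = 0.58 for cheek tumors 2 and 3 and 0.23 for cheek tumor 1 and meninges tumor 1. The same pseudocount gave Bdnf 0.12 (meninges minus retro-orbital) and quantile normalization gave Bdnf 0.113 (cheek minus meninges) and Gfra1 -0.022 (meninges minus retro-orbital). With 1 tumor left out, Bdnf ranged from -0.673 to 0.21 (cheek minus retro-orbital), -0.512 to 0.497 (meninges minus retro-orbital) and -0.644 to 0.219 (cheek minus meninges). Ntrk2 ranged from -0.683 to 0.982 (cheek minus retro-orbital), Ntrk3 from -0.201 to 1.459 (cheek minus meninges), Gfra1 from -0.227 to 0.708 (meninges minus retro-orbital) and Gfra2 from -0.095 to 0.345 (cheek minus retro-orbital). Values that kept their sign also moved by over 1.5 times: Ntf3 ranged from -1.121 to -0.394 (cheek minus retro-orbital), 0.382 to 1.656 (meninges minus retro-orbital) and -2.36 to -1.086 (cheek minus meninges), Ntrk3 from 1.076 to 2.706 (meninges minus retro-orbital), Gfra1 from -1.274 to -0.339 (cheek minus retro-orbital), Ntrk2 from -2.464 to -0.799 (cheek minus meninges) and Gfra2 from -0.699 to -0.281 (meninges minus retro-orbital) and 0.413 to 0.831 (cheek minus meninges).

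The number of genes called over the whole table, 6 in the F test, 4 between cheek and retro-orbital, 3 between meninges and retro-orbital and 7 between cheek and meninges, changed by more than 1.5 times in at least 1 of the 4 under each alternative named here. With no filter it was 10, 2, 7 and 18, in that order, and with another prior 19, 3, 6 and 22. With the block it was 2802, 2, 3 and 4243. With cheek tumors 2 and 3 averaged it was 0 in all 4. Between cheek and meninges, pseudocount 0.1 gave 2 and quantile normalization 13. With 1 tumor left out, the counts ran from 0 to 198, 0 to 147, 0 to 41 and 0 to 527; the highest came without cheek tumor 1, except for meninges minus retro-orbital, where it came without retro-orbital tumor 3. The cause was not tested. None of the 6 members tested was called in these fits, other than Ntf3 with the block. Fragments were as few as 5 for Gdnf and 0 for Ntf3, which limits the precision of their low values.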
